A study of Mus musculus with 4 samples.

Results

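Msx1, Msx2, Dlx5 and Dlx6 were followed across the cell classes of the neonatal mouse oviduct and uterus. They are 4 of the 31053 genes listed, taken by symbol, and they had been singled out because their levels in epithelium and in mesenchyme differed between the organs in these same libraries, so those organ differences, and the differences between the same epithelial and mesenchymal sums, are given here as values without a test. Wild-type, untreated CD1 mice were used at postnatal day 3, with 2 oviduct and 2 uterus libraries of droplet single-cell RNA-seq (a 3′ assay that counts unique molecular identifiers, UMIs, per cell). Oviducts and uteri were pooled from 3 neonates in 1 case and 4 in the other, the same animals giving either organ, so a library is a pool and not an animal, and p-values measure the spread between pools. The labelled cell types, mesenchymal and epithelial, were both present, beside smooth muscle, mesothelium, vessels, pericytes, myeloid cells and red cells.

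Msx and Dlx proteins are homeodomain transcription factors. Msx1 and Msx2 act mainly as repressors downstream of bone morphogenetic protein (BMP) signals, and Dlx5 and Dlx6 mainly as activators at related sites. In the adult mouse uterus, Msx1 and Msx2 in the luminal epithelium are needed for embryo implantation, and Dlx5 and Dlx6 are known for roles in the formation of uterine glands and in implantation. Dlx5 and Dlx6 lie side by side as a linked gene pair, whereas Msx1 and Msx2 lie on different chromosomes.

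In the GENCODE M21 annotation of GRCm38, Msx1 (ENSMUSG00000048450) spans chr5:37820485-37824583 on the minus strand and Msx2 (ENSMUSG00000021469) chr13:53466884-53473074 on the minus strand. Dlx5 (ENSMUSG00000029755) spans chr6:6877805-6882085 on the minus strand and Dlx6 (ENSMUSG00000029754) chr6:6863334-6868568 on the plus strand. All members carry the homeobox. The coding sequence of Msx2, Dlx5 and Dlx6 over its last 15 codons, which include the DNA-contacting part of the recognition helix, is shown because it is the part that defines the family. Each stretch of 45 bases lies in the last coding exon, exon 2 of 2 in Msx2 and exon 3 of 3 in Dlx5 and Dlx6. Capitals mark codons 48 to 53 of the homeobox, the codons of the core of that helix.
Msx2, chr13:53468370-53468414, minus strand: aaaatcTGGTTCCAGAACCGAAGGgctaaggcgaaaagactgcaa
Dlx5, chr6:6878441-6878485, minus strand: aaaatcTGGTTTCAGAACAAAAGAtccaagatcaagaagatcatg
Dlx6, chr6:6867044-6867088, plus strand: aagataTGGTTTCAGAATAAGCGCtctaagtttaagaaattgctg
Over the whole homeobox of 180 bases, Dlx5 and Dlx6 were identical at 73.3% of bases, and their translations at 51 of 60 residues. The Msx2 homeobox was identical to that of Dlx5 at 58.9% and to that of Dlx6 at 56.7% of bases. The longest exact run that transcripts of Dlx5 and Dlx6 shared was 18 bases. Msx2 and Dlx5 transcripts shared a run of 12 bases, and Msx2 and Dlx6 transcripts a run of 44 bases, a simple repeat of T and C.

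RefSeq promoter windows (GRCm38.p6, 250 bases before to 50 after a start) were given for Msx1 and Msx2 among the 4. The letters TAATTA, a palindrome that homeodomains of this kind can bind, were found in the Msx2 window, 187 bases before the RefSeq start but inside the GENCODE span of the gene given above, whose start lies further out, and in 5.29% of all 32851 windows. It is shown as the single match in the members' windows, with capitals marking it, and a match is not a measured binding site.
Msx2, chr13:53472950-53472979, minus strand: tgactgctcctgTAATTAactcctaattta
Of the motifs searched on both strands, the Msx1 window held no match to TAATTA. It also held no match to CAATTA, which 8.0% of all windows had, and none to GGCGCC, which 11.9% had.

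The 4 libraries held 5716 to 7808 called barcodes and 61117726 to 114419939 UMIs, and 3848 to 6463 cells per library remained after filters on genes, mitochondrial UMIs and probable doublets. Low-quality barcodes dropped before the doublet step made up 11.4% and 13.8% of the oviduct libraries and 29% and 28.7% of the uterus libraries. Cells were assigned to classes by marker genes that include none of the 4. The epithelial class had 149 and 253 cells in the oviduct libraries (replicates 1 and 2) and 50 and 57 in the uterus libraries, with 7284931, 8169302, 1303065 and 2099755 UMIs. Its 11 markers were detected in every library and summed to 2984 to 3311 CPM (the UMIs of a gene per 1000000 UMIs of the class in that library). The median UMIs per epithelial cell were 18933 and 13439 in oviduct and 5696.5 and 2999 in uterus, so shares of cells are also given for cells of at least 5000 UMIs. Of the called barcodes, 36 to 38 per library were also called in another library. A sum over cells does not separate fewer expressing cells from less RNA per cell, and the single-cell values are therefore given beside the sums.

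All 4 genes were high in uterine epithelium and low in oviduct epithelium. Msx1 was at 404 and 561 CPM in the uterus libraries and at 72.1 and 9.30 CPM in the oviduct libraries. Msx2 was at 167 and 182 CPM in uterus and at 18.9 and 2.57 CPM in oviduct. For neither gene did the organs overlap, and oviduct replicate 1 was the higher of the oviduct libraries for both.
Dlx5 was at 144 and 152 CPM in uterus and at 32.5 and 15.5 CPM in oviduct. Dlx6 was at 77.5 and 62.9 CPM in uterus and at 5.35 and 0.367 CPM in oviduct, where the lower library held 3 UMIs. Again the organs did not overlap and oviduct replicate 1 lay above replicate 2. The means were 482 ± 110 CPM in uterus and 40.7 ± 44.4 CPM in oviduct for Msx1, and 174 ± 11.2 and 10.8 ± 11.6 CPM for Msx2 (SD, n = 2). For Dlx5 they were 148 ± 5.41 and 24 ± 12 CPM, and for Dlx6 70.2 ± 10.4 and 2.86 ± 3.53 CPM (SD, n = 2). The spread between the oviduct libraries was therefore as large as their mean for Msx1, Msx2 and Dlx6.

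The fitted log2 fold changes of oviduct against uterus were −3.45 ± 0.50 for Msx1, −3.92 ± 0.43 for Msx2, −2.50 ± 0.25 for Dlx5 and −4.51 ± 0.44 for Dlx6 (edgeR, SE). Because the genes were chosen on this contrast, no p is given for them. These values depend on which oviduct cells and libraries enter. Leaving out oviduct replicate 1 gave −5.54, −5.92, −3.10 and −7.29 for Msx1, Msx2, Dlx5 and Dlx6, and leaving out oviduct replicate 2 gave −2.61, −3.06, −2.05 and −3.55. Within cluster 25, an epithelial cluster found in both organs, differences of mean log2 CPM, not fitted, were −0.85, −0.69, −0.62 and −1.58 (chosen after seeing the data). The 6 cells of oviduct replicate 1 with a UMI of all 4 genes lay in this cluster. They held 495 of its 505 Msx1 UMIs and all 39 Dlx6 UMIs in that library. Oviduct replicate 2 had 10, 6, 4 and 1 UMIs of Msx1, Msx2, Dlx5 and Dlx6 there. The SE draws on the spread of all genes and is smaller than the gap between the oviduct libraries would give. Among all 12210 genes tested in epithelium, 23.6% passed an adjusted p of 0.05 in either direction (edgeR's quasi-likelihood test, Benjamini-Hochberg), and nothing is read from the members against that share. Free RNA from lysed cells could supply at most 1.38% of the UMIs of any member in the epithelium of any library.

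**Figure D1:**
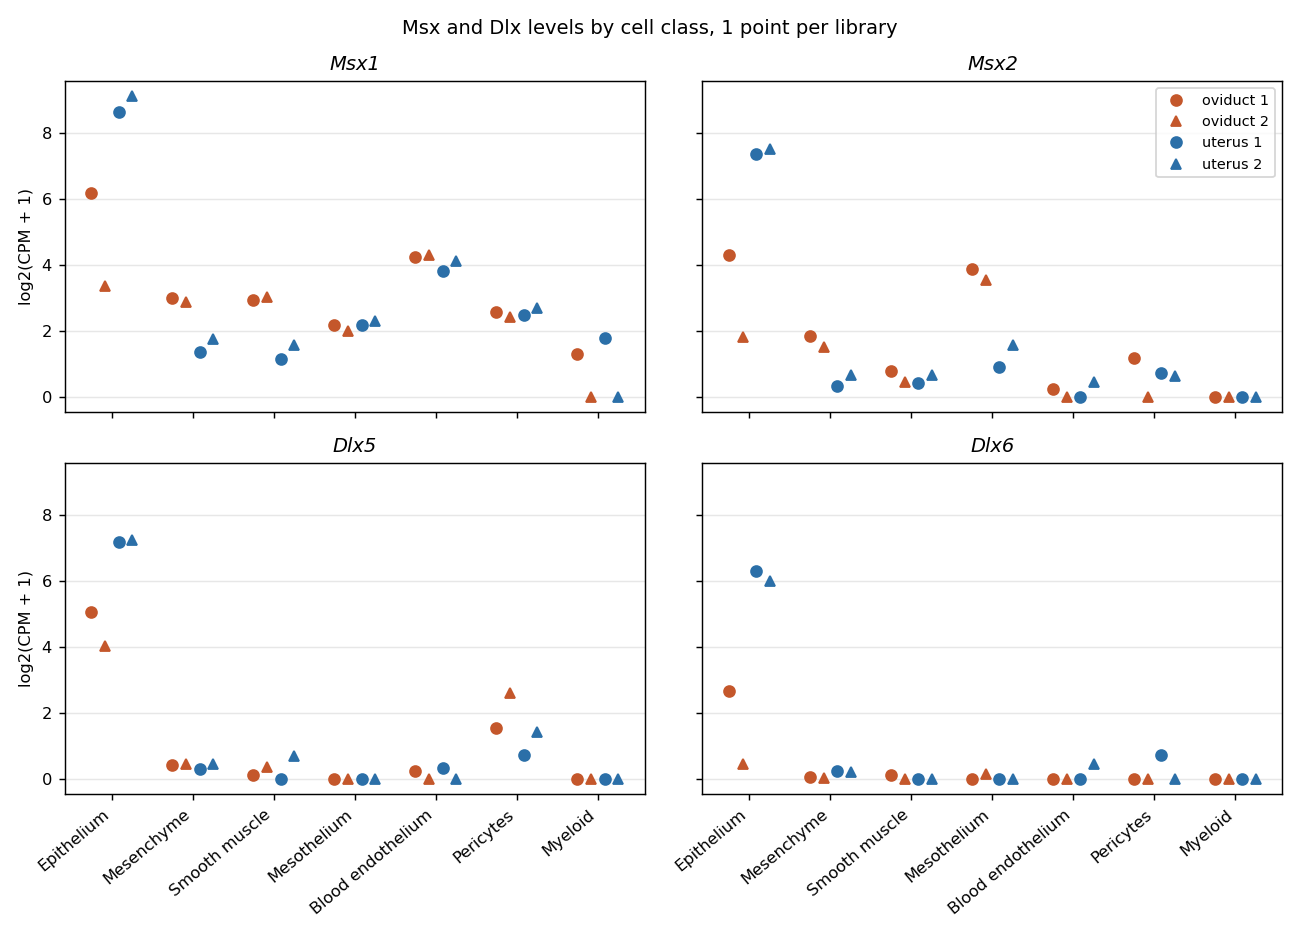
Level of each gene, as log2(CPM + 1), in 7 cell classes, with 1 point per library (circles replicate 1, triangles replicate 2, oviduct in orange, uterus in blue). In epithelium both uterus points lie above both oviduct points in each panel, whereas Msx1 in mesenchyme and smooth muscle and Msx2 in mesenchyme and mesothelium have both oviduct points on top. Msx1 in blood endothelium and Dlx5 in pericytes also have both oviduct points on top, by smaller gaps. Haemoglobin-rich barcodes are not drawn.

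In single epithelial cells the genes were found together in the uterus. At least 1 Msx1 UMI was present in 34 of 50 and 37 of 57 uterine epithelial cells (68.0%, exact binomial 95% interval 53.3% to 80.5%, and 64.9%, 51.1% to 77.1%). In oviduct it was present in 20 of 149 and 17 of 253 cells (13.4%, 8.40% to 19.97%, and 6.72%, 3.96% to 10.5%). These intervals cover counting error only. Msx2 was detected in 58.0% and 47.4% of uterine and 4.70% and 2.77% of oviduct epithelial cells, and Dlx6 in 40% and 43.9% against 4.03% and 1.19%. Dlx5 was the most widely detected of the 4 in oviduct, in 30.2% and 20.9% of cells, against 56.0% and 45.6% in uterus.

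For comparison, in myeloid cells Msx2, Dlx5 and Dlx6 had no UMI in 73, 72, 48 and 33 cells, and Msx1 had 1 UMI in each of 2 libraries; the median depth of these cells was 2428.5 to 5020.5 UMIs. In blood endothelium, at median depths of 13243 to 18600 UMIs, Msx2 was found in at most 1.10% and Dlx5 in at most 0.658% of cells. Thinned to 3000 UMIs per cell, a depth at which 26 and 61 oviduct and 12 and 29 uterine cells were too shallow to enter, Msx1 was expected in 6.0% and 2.39% of oviduct and 49.3% and 74.4% of uterine epithelial cells. Dlx5 was then expected in 5.79% and 4.29% against 31.4% and 32.2%. At this equal depth the uterine shares of both genes remained above the oviduct shares.

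All 4 genes were detected in the same cell in 15 of 50 and 21 of 57 uterine epithelial cells, and in 6 of 149 and 1 of 253 oviduct epithelial cells. Among cells of at least 5000 UMIs, these were 15 of 29 (51.7%) and 21 of 25 (84.0%) in uterus and 6 of 106 (5.66%) and 1 of 163 (0.614%) in oviduct. In uterus replicate 2 each of the 25 deeper cells had an Msx1 UMI and none had fewer than 2 of the 4 genes. In uterus replicate 1, 3 of the 29 had none of the 4. Independent detection at the observed single-gene shares would have put all 4 in 8.46 of 29 and 19.4 of 25 cells. Thinned to 3000 UMIs per cell, all 4 genes were expected together in 0.908% and 2.36% of uterine and in 0.114% and 0.00018% of oviduct epithelial cells. Depth varies between cells and raises such joint counts, and its part was not tested.

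**Figure D2:**
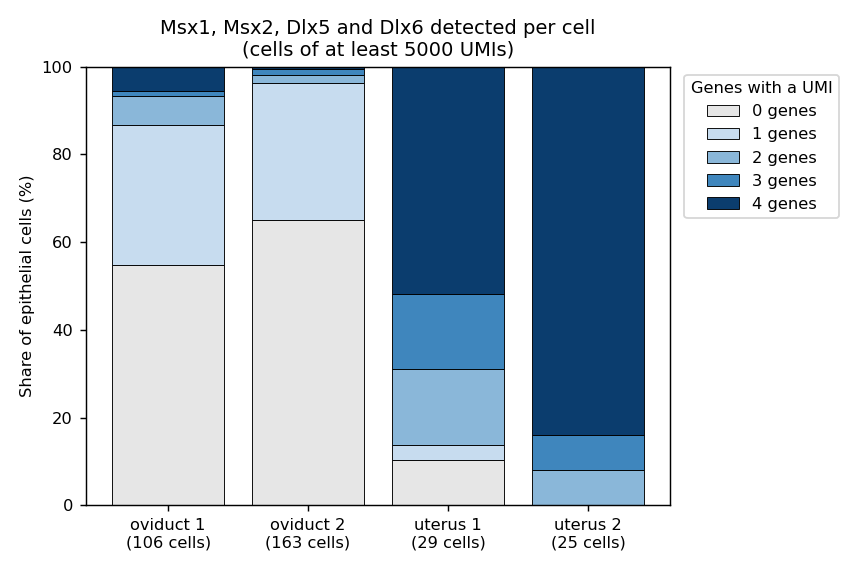
Share of epithelial cells of at least 5000 UMIs, in percent, with a UMI of 0, 1, 2, 3 or all 4 of the genes, 1 bar per library. The darkest part, all 4 genes, is 51.7% and 84.0% of uterine cells and 5.66% and 0.614% of oviduct cells, while 58 of 106 and 106 of 163 oviduct cells have none.

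The epithelial signal of Msx1, Msx2 and Dlx6 in 1 of the oviduct libraries, replicate 1, was carried by a handful of cells. In oviduct replicate 1, the 6 cells with all 4 genes held 495 of 525 Msx1 UMIs (94.3%), 137 of 138 Msx2 UMIs (99.3%) and all 39 Dlx6 UMIs of the epithelium. They held 160 of 237 Dlx5 UMIs (67.5%). Within these 6 cells Msx1 stood at 594 CPM, Msx2 at 164, Dlx5 at 192 and Dlx6 at 46.8 CPM, beside 404 and 561, 167 and 182, 144 and 152, and 77.5 and 62.9 CPM in uterine epithelium. These cells were picked by the members, so their high levels follow from the choice. In the other 143 cells Msx1 was at 4.65 CPM, Msx2 at 0.155 CPM and Dlx5 at 11.9 CPM, and there was no Dlx6 UMI. In oviduct replicate 2 the single cell with all 4 genes held 36 of 76 Msx1, 8 of 21 Msx2 and 1 of 3 Dlx6 UMIs. The other cells of that library gave 5.00, 1.62 and 0.25 CPM for these genes.

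The 6 cells also carried a uterine profile in genes other than Msx and Dlx. A pair of lists of 50 genes each, higher in oviduct or in uterine epithelium, was drawn from a fit that left out oviduct replicate 1 and excluded the whole Msx and Dlx family. In the 6 cells, 79.7% to 89.6% of the UMIs on both lists came from the uterus list. The other 100 deeper epithelial cells of the library had a median of 6.44%. Uterine epithelial cells, which helped to define the lists, had medians of 88.9% and 90.4%. Split by that share rather than by the members, 7 of the 106 deeper cells of oviduct replicate 1 had over 50% of their list UMIs from the uterus list. Of these, 7 had Msx1, 7 Msx2, 7 Dlx5 and 6 Dlx6. In the other 99 cells Msx1 was at 3.17 and Dlx5 at 11.2 CPM, and there was no UMI of Msx2 or Dlx6, which allows up to 0.475 CPM.

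In oviduct replicate 2, 1 of 163 deeper cells was over that share, with Msx1, Msx2 and Dlx5 UMIs. In the other 162 cells Msx1 was at 7.71, Msx2 at 1.77, Dlx5 at 14.8 and Dlx6 at 0.253 CPM. The cell with all 4 genes was among these and held 36 of their 61 Msx1 and 8 of their 14 Msx2 UMIs. The 6 cells of replicate 1 were deep, with 65996 to 242355 UMIs. Their doublet scores were 0.103 to 0.130, and scores from 0.137 were removed in that library. None of their barcodes was called in another library. The labels do not say where these cells lay, and whether they belonged to the oviduct or were carried over from the uterus at dissection was not tested.

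**Figure D3:**
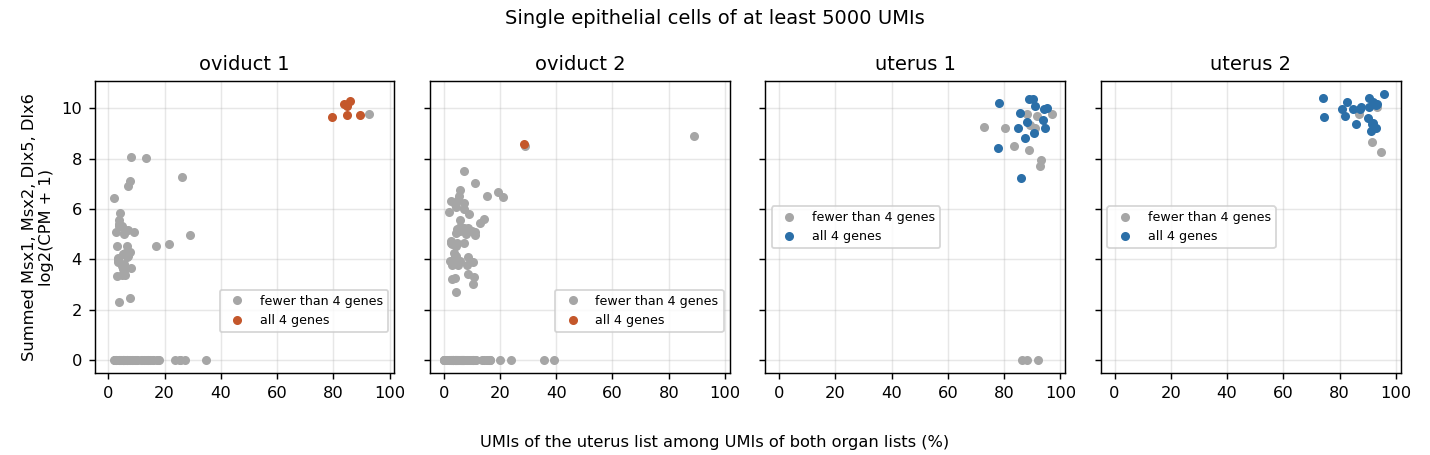
Each point is an epithelial cell of at least 5000 UMIs. The horizontal axis is the percent of organ-list UMIs that came from the uterus list and the vertical axis the summed level of Msx1, Msx2, Dlx5 and Dlx6 as log2(CPM + 1); coloured cells had all 4 genes. The 6 coloured cells of oviduct replicate 1 lie at 79.7% to 89.6%, in the range of the uterine cells and with 1 grey cell of that library at 92.6%, and the coloured cell of replicate 2 lies at 28.4%.

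Dlx5, and Msx1 in fewer cells, were also found in oviduct epithelium outside the few cells with a uterine profile. Unsupervised clustering put 84 and 144 oviduct epithelial cells, and no uterine cell, in cluster 24. There Dlx5 was detected in 41.7% and 29.9% of cells at 11.2 and 14.8 CPM, and Msx1 in 14.3% and 9.72% at 3.24 and 7.85 CPM. Msx2 had 0 and 14 UMIs and Dlx6 0 and 2 UMIs in the same cells. The cell of replicate 2 with all 4 genes lay in this cluster. It held 36 of the 61 Msx1 and 8 of the 14 Msx2 UMIs of the cluster in that library. Among deeper oviduct cells with a UMI of Foxj1, the regulator of multiciliated cells, Dlx5 was at 11.3 and 12.5 CPM and Msx1 at 3.27 and 3.22 CPM. All 6 cells of replicate 1 with the 4 genes lacked Foxj1.

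The uterine epithelial class could hold stratified cells of the cervix or vagina. The 6 markers of stratified epithelium summed to 430 and 191 CPM in uterus and 159 and 149 CPM in oviduct epithelium. Krt17 made up most of the uterine sum, at 374 and 139 CPM against 40.5 and 37.0 CPM in oviduct. Krt15 made up most of the oviduct sum, at 116 and 110 CPM against 28.4 and 43.3 CPM in uterus. Krt5 had 35 and 18 UMIs in uterus and 6 and 10 in oviduct. Trp63 had 1 UMI in each uterus library and 5 and 2 in oviduct, Krt14 none in uterus and 5 and 5 in oviduct, and Krt6a 1 UMI in all. In the deeper uterine cells without a Krt5 UMI, Msx1 was at 405 and 615 CPM and Dlx5 at 138 and 155 CPM. The part of stratified cells in the uterine levels was not tested.

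The remaining family members were low. Msx3 was found in epithelium, at 11.5 and 8.57 CPM in uterus and 2.47 and 1.35 CPM in oviduct. Dlx6os1, a non-coding RNA read from chr6:6820189-6871592 on the minus strand across Dlx6, was at 20.7 and 18.6 CPM in uterine and at 0.275 and 0 CPM in oviduct epithelium. It followed Dlx6 in direction, but whether counting used strand is not given in the sources used here, so reads of the overlapping genes may not be separable. Dlx3 was at 1.53 and 3.81 CPM in uterine and 0.137 and 0.245 CPM in oviduct epithelium. In mesenchyme Msx3 had 0 to 3 UMIs per library and Dlx6os1 0 to 4, and Dlx3 was at 0.273 and 0.199 CPM in oviduct and 0.0299 and 0.111 CPM in uterus. No test between the classes is given for them. Dlx3 and Dlx4 were also seen in oviduct mesothelium, at 2.63 and 2.55 CPM and at 2.41 and 1.84 CPM, with 0 to 3 UMIs per uterus library. At these counts the ratios of oviduct to uterus were 1.37 (counting interval 0.509 to 5.21) for Dlx3 and 4.58 (0.785 to 184) for Dlx4, and an organ difference was not detectable for either. Dlx2, Dlx4 and Dlx1as had no UMI in the epithelium of any library, and Dlx1 had at most 1.

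In mesenchyme both Msx genes were higher in oviduct. Msx1 was at 7.10 and 6.42 CPM in oviduct and 1.62 and 2.41 CPM in uterus, and Msx2 at 2.65 and 1.87 CPM against 0.269 and 0.608 CPM. The organs did not overlap for either gene. The fitted log2 fold changes were 1.69 ± 0.19 and 2.31 ± 0.34 (edgeR, SE), again without a test. With doublets kept they were 1.31 and 1.63, and with classes taken from clusters Msx2 was 1.31. Leaving out 1 library gave 1.83 to 3.04 for Msx2, the extremes without a uterus replicate. Among all 15504 genes tested, 46.8% were called in this contrast. The mesenchyme of the organs fell into different clusters: the largest of oviduct, cluster 0, held 1094 and 698 oviduct and 3 and 12 uterine cells of the class, and that of uterus, cluster 1, 14 and 15 against 871 and 724. Markers moved with the organ in these sums. The 8 mesenchyme markers themselves summed to 8920 and 9275 CPM in oviduct and 4606 and 4437 CPM in uterus. The 6 mesothelium markers summed to 116 and 100.2 CPM in oviduct and 42.5 and 37.4 CPM in uterus, the 7 of blood endothelium to 48.7 and 52.2 against 27.3 and 25.3 CPM. The 6 of stratified epithelium summed to 26.1 and 24.2 against 2.36 and 1.77 CPM, and the 6 of lymphoid cells to 15.1 and 26.1 against 4.16 and 7.22 CPM. The part of these in the Msx values was not tested. Free RNA could account for 41.1% to 100% of the uterine mesenchymal UMIs of these genes and for 5.44% to 10.9% of the oviduct UMIs, so expression in uterine mesenchyme was not detectable above free RNA in replicate 1. Dlx5 stayed at 0.239 to 0.369 CPM and Dlx6 at 0.0284 to 0.180 CPM in mesenchyme, with up to 100% of their UMIs within the free-RNA bound.

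In smooth muscle Msx1 was higher in oviduct. The genes were chosen on epithelium and mesenchyme, but with earlier results of these data known. Cells gated as smooth muscle also shared clusters with mesenchyme. Cluster 2 held 58 and 76 oviduct cells of smooth muscle and 642 and 649 of mesenchyme. The test below may thus not be independent of that choice. Msx1 was at 6.66 and 7.26 CPM (82 and 74 UMIs) in oviduct and at 1.22 and 2.0 CPM (7 and 13 UMIs) in uterus. The organs did not overlap, and the log2 fold change was 2.01 ± 0.32 (edgeR, adjusted p = 1.6e-04), where 26.5% of the 12777 genes tested were called. Beside this, 17.2% to 27.3% of smooth muscle cells lay near the gate. The class lay in different clusters by organ, with 454 and 357 oviduct but 1 and 2 uterine cells in cluster 7, and 249 and 253 uterine but 12 and 24 oviduct cells in cluster 3. Cluster 3 was left unnamed, with a mean smooth muscle score of 0.373 and a mesenchyme score of 0.345. The 8 mesenchyme markers summed to 4133 and 3955 CPM in oviduct and 3175 and 2980 CPM in uterine smooth muscle. The 3 ovarian markers (Foxl2, Amhr2 and Nr5a1) summed to 148 and 164 CPM in oviduct and 79.4 and 83.3 CPM in uterus. They were left out of the gate because duct mesenchyme also makes Amhr2, so their sum does not by itself mark ovarian cells. Mesothelium markers summed to 28.6 and 21.5 against 12.5 and 16.0 CPM, and blood endothelium markers to 23.6 and 22.5 against 15.3 and 17.4 CPM. Free RNA could supply 83.8% and 41.8% of the uterine and 7.57% and 2.78% of the oviduct Msx1 UMIs in this class. The part of these in the result was not tested. Msx2 had 2 to 9 UMIs per library there and did not pass the filter on low counts.

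In mesothelium, the outer lining, Msx2 was higher in oviduct. It was at 14.0 and 10.7 CPM in oviduct, in 23.1% and 16.9% of cells, and at 0.893 and 2.01 CPM in uterus, where only 1 and 2 UMIs were counted. The ratio of oviduct to uterus was 8.88 with a counting interval of 3.01 to 43.3. The log2 fold change was 3.11 ± 0.57 (edgeR, adjusted p = 0.0042), and 6.38% of the 12470 genes tested were called. Msx2 passed the filter on low counts through the oviduct libraries. With no such filter its adjusted p was 1.1e-06 (edgeR). Both p-values rest on the same 1 and 2 uterine UMIs, so the smaller one adds no support. Cluster 4, named mesothelium, also held 124 and 132 oviduct and 19 and 12 uterine cells gated as mesenchyme. The genes were chosen on mesenchyme, so the test may not be independent of that choice. Neither p-value is read as independent support. The count of genes called was 795 and rose to 1343 with the replicate number as a block. Msx1 was at 3.53 and 3.06 CPM in oviduct (47 and 30 UMIs) and 3.57 and 4.02 CPM in uterine mesothelium (4 and 4 UMIs). The log2 difference was −0.19 ± 0.53 (edgeR, adjusted p = 0.91). Free RNA could supply up to 40.6% of the Msx1 UMIs in oviduct replicate 1. Whether Msx1 and Msx2 differ from each other in the organ difference was not tested. The uterine classes had 50 and 41 cells. Their mesenchyme markers summed to 11497 and 9189 CPM, against 6469 and 6072 CPM in oviduct. Smooth muscle markers summed to 1165 and 1129 CPM in uterus and 495 and 496 CPM in oviduct, and blood endothelium markers to 208 and 226 against 74.9 and 81.4 CPM. Other lists were higher in oviduct. Epithelium markers summed to 233 and 200 CPM in oviduct and 136 and 116 CPM in uterus. Pericyte markers summed to 174 and 128 against 85.7 and 106 CPM. The 3 ovarian markers, which include Amhr2, summed to 61.4 and 50.6 against 35.7 and 33.1 CPM. Free RNA could supply 100% and 27.3% of the uterine Msx2 UMIs and at most 4.98% of those in oviduct. The part of any of these in the result was not tested.

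Msx1 was also a gene of blood endothelium, at 17.9 and 18.8 CPM in oviduct and 13.3 and 16.6 CPM in uterus, in 16.0% to 24.3% of cells. The log2 difference was 0.30 ± 0.20 (edgeR, adjusted p = 0.62), where 3.19% of 11186 genes were called. The gap between the organs was of the size of the spread between the uterus libraries. The other 3 genes had 0 to 2 UMIs per library in endothelium. In pericytes Msx1 was at 4.36 to 5.57 CPM and Dlx5 at 0.664 to 5.09 CPM (1 to 7 UMIs). Neither passed the filter on low counts there. In haemoglobin-rich barcodes, where free RNA could supply 52.7% to 89.4% of all UMIs, Msx1 was at 6.97 to 18.4 CPM.

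Ordered by level, Msx1 was thus highest in uterine epithelium, and its next places were not separable, since oviduct epithelium at 9.30 and 72.1 CPM spanned the endothelial values of both organs. Oviduct mesenchyme and oviduct smooth muscle did not differ beyond their spread at 6.42 to 7.26 CPM. For Msx2 uterine epithelium came first, and oviduct epithelium at 2.57 and 18.9 CPM spanned oviduct mesothelium at 10.7 and 14.0 CPM. For Dlx5 uterine epithelium, oviduct epithelium and then all other classes, at most 5.09 CPM, followed each other without overlap. For Dlx6 uterine epithelium was followed by oviduct epithelium, whose lower library, at 0.367 CPM with 3 UMIs, lay within the 0 to 1.25 CPM of the other classes.

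Within each organ, epithelium was set beside the mesenchyme of the same library. These are the sums on which the genes were chosen, so no p is given. In uterus the 4 genes were higher in epithelium by 7.66 ± 0.30 (Msx1), 8.35 ± 0.28 (Msx2), 8.66 ± 0.22 (Dlx5) and 8.36 ± 0.36 (Dlx6) on the log2 scale (edgeR, SE). In this comparison 20.5% of the 15854 genes tested were called higher in epithelium. The uterine values rest on few mesenchymal UMIs, 54 and 87 for Msx1, 9 and 22 for Msx2, 8 and 13 for Dlx5 and 6 and 6 for Dlx6. The free-RNA bounds given above for mesenchyme apply to these counts. Mesenchymal Dlx6 had 3 and 1 UMIs in the oviduct libraries. In oviduct the differences were 2.37 ± 0.28, 2.18 ± 0.28, 6.15 ± 0.22 and 6.05 ± 0.60 (edgeR, SE), and 32.2% of genes were called higher in epithelium. Nothing is read from the members against these shares. Without oviduct replicate 1, which leaves 1 oviduct library whose spread is taken from the other sums, the oviduct differences were 0.52, 0.44, 5.35 and 3.40. In replicate 2 alone, Msx1 stood at 9.30 CPM in epithelium and 6.42 CPM in mesenchyme. In the deeper oviduct epithelial cells with at most 50% of list UMIs from the uterus list, Msx1 was at 3.17 and 7.71 CPM, beside 7.10 and 6.42 CPM in the mesenchyme of the same libraries. In replicate 2, 36 of the 61 Msx1 UMIs behind the 7.71 CPM came from 1 cell, that with all 4 genes.

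**Figure D4:**
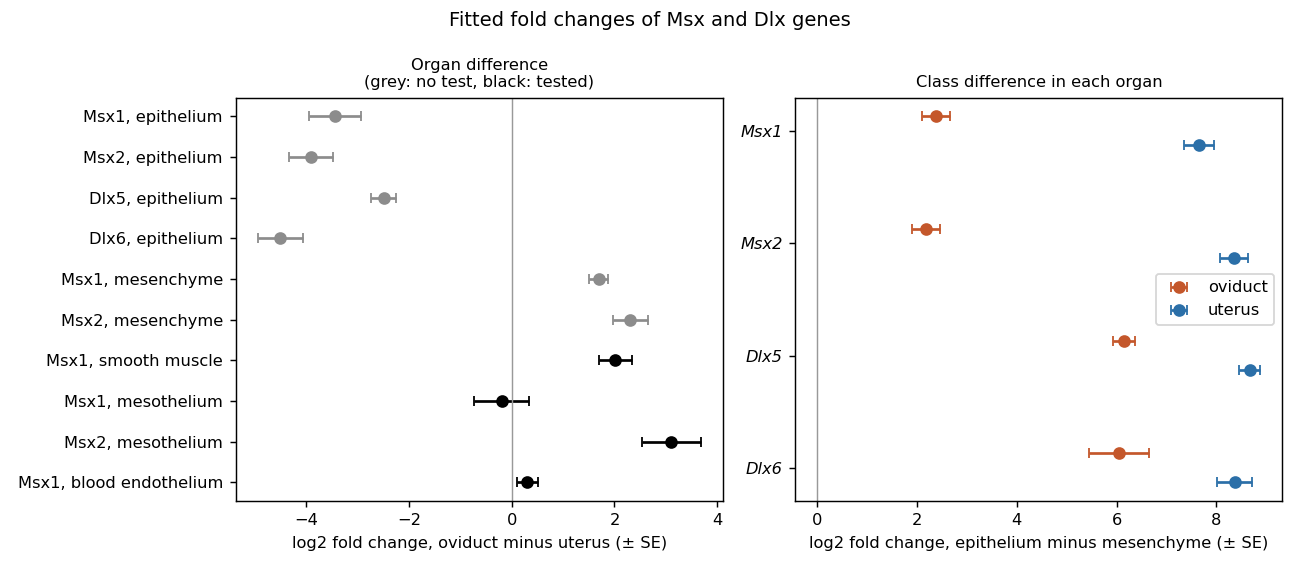
Fitted log2 fold changes with SE from edgeR. On the left, oviduct minus uterus, where the 4 epithelial values lie between −4.51 and −2.50 and the Msx values of mesenchyme, smooth muscle (Msx1) and mesothelium (Msx2) between 1.69 and 3.11 (grey values were not tested). On the right, epithelium minus mesenchyme, also not tested, with oviduct values of 2.18 to 6.15 and uterus values of 7.66 to 8.66.

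The 5 lists below were chosen with earlier results of these data known. Their counts and p-values are therefore not tests of lists fixed in advance. Genes of the pathways around Msx and Dlx were read from these lists in the same epithelial organ contrast, in which 23.6% of all genes were called and the median log2 difference over all genes was 0.01. The 6 markers of multiciliated cells summed to 168 and 129 CPM in oviduct and 16.9 and 11.9 CPM in uterus in these sums, and their part in the differences of the list genes and of the members was not tested. Of the BMP pathway, 20 of 24 genes were tested and 7 called, 3 higher in oviduct and 4 in uterus, with a median of −0.17. Id3, a direct BMP target, was at 272 and 317 CPM in uterus and 129 and 51.0 CPM in oviduct (log2 difference −1.58 ± 0.29, edgeR adjusted p = 5.1e-04). Id2 and Id1 moved the same way, Id2 by −0.75 ± 0.19 (edgeR adjusted p = 0.0077) and Id1 by −0.53 ± 0.19 (edgeR adjusted p = 0.047). The Id1 call was lost in 9 of 13 other settings, and Id4 was not called (−0.43, edgeR adjusted p = 0.16). The BMP receptor Bmpr1b went the other way, at 64.7 and 78.2 CPM in oviduct and 24.6 and 27.1 CPM in uterus (1.59 ± 0.21, edgeR adjusted p = 1.6e-05). Under 20 CPM on average, Bmp7 (1.15 ± 0.33, edgeR adjusted p = 0.015) and Bmp4 (1.11 ± 0.34, edgeR adjusted p = 0.025) were also higher in oviduct. Smad6, also under that level, was higher in uterus (−0.82 ± 0.25, edgeR adjusted p = 0.024). Bmp7, Bmp4 and Smad6 were named after their values were seen.

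Of the Wnt list, 17 of 19 were tested and 7 called, 5 higher in uterus, with a median of −0.39. Wnt7a, an epithelial Wnt ligand needed for patterning of the female tract, was at 131 and 129 CPM in uterus and 31.6 and 34.5 CPM in oviduct (−1.84 ± 0.17, edgeR adjusted p = 3.8e-07). Lgr5, a receptor for R-spondins, was at 43.7 and 58.1 against 25.1 and 18.0 CPM (−1.13 ± 0.22, edgeR adjusted p = 0.0010). Tcf7l1 was higher in uterus by a smaller amount (−0.60 ± 0.19, edgeR adjusted p = 0.031), a call lost in 5 of 13 other settings. Wnt6 (−1.19 ± 0.33, edgeR adjusted p = 0.012) and Wnt7b (−0.70 ± 0.24, edgeR adjusted p = 0.038) were also higher in uterus. Both were under 20 CPM on average and named after their values were seen. Wnt11 had the opposite direction, at 67.7 and 72.3 CPM in oviduct and 7.67 and 10.5 CPM in uterus (3.03 ± 0.24, edgeR adjusted p = 5.9e-08), as had the Wnt effector Tcf7l2 (1.45 ± 0.20, edgeR adjusted p = 3.8e-05).

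Among regulators of the uterine epithelium, 9 of 11 were tested and 6 called, 4 higher in oviduct, with a median of 0.51. The progesterone receptor gene Pgr was at 125 and 128 CPM in uterus and 36.9 and 37.0 CPM in oviduct (−1.64 ± 0.17, edgeR adjusted p = 1.3e-06). The oestrogen receptor gene Esr1 was at 61.1 and 86.9 CPM in oviduct and 3.84 and 9.52 CPM in uterus (3.48 ± 0.31, edgeR adjusted p = 2.2e-07). Nr2f2 was higher in oviduct by 0.79 ± 0.18 (edgeR adjusted p = 0.0035) and Sox17 higher in uterus by 0.50 on the log2 scale, at 317 and 317 against 202 and 205 CPM (edgeR adjusted p = 0.038). The Sox17 call was lost in 6 of 13 other settings. Foxa2, a regulator of uterine glands, was below the level asked for naming and is given after its values were seen, at 13.5 and 16.5 CPM in oviduct and with no UMI in either uterus library (edgeR adjusted p = 2.7e-06). It passed the filter on low counts through the oviduct libraries. Lif, also below that level and given after its values were seen, was higher in oviduct (2.44 ± 0.73, edgeR adjusted p = 0.022). Lif was at 3.02 and 5.88 CPM in oviduct and only 1.53 and 0.476 CPM in uterus. It too passed the filter on low counts through the oviduct libraries.

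Of 17 homeobox and paired factors of the ducts, 8 were tested and 5 called, 3 higher in oviduct, with a median of −0.00. Barx2, a homeobox gene, was higher in uterus like the 4 members, at 69.1 and 70.5 CPM in uterus and 14.6 and 8.08 CPM in oviduct (−2.50 ± 0.24, edgeR adjusted p = 5.0e-07). Pax2 was also higher in uterus (−0.81 ± 0.18, edgeR adjusted p = 0.0032). Pax8 at 195 and 222 against 106 and 96.7 CPM (1.19 ± 0.18, edgeR adjusted p = 8.2e-05) and Meis2 (1.20 ± 0.19, edgeR adjusted p = 1.6e-04) were higher in oviduct. So was Lhx1 (2.03 ± 0.41, edgeR adjusted p = 0.0014), under 20 CPM on average and named after its values were seen. Of 10 partners and corepressors, 9 were tested and 3 called, 1 higher in oviduct and 2 in uterus, with a median of −0.10. Tle4 was higher in oviduct, at 13.5 and 14.8 CPM against 2.30 and 1.43 CPM in uterus (3.11 ± 0.43, edgeR adjusted p = 3.4e-05). Runx2 was higher in uterus (−1.71 ± 0.28, edgeR adjusted p = 2.2e-04). Both were under 20 CPM on average and named after their values were seen. Above that level was Ezh2, the enzyme of Polycomb repression, at 132 and 116 CPM in uterus and 70.6 and 65.2 CPM in oviduct (−0.73 ± 0.17, edgeR adjusted p = 0.0042). The calls of Id3, Id2, Nr2f2, Pax2 and Ezh2 were each lost in 1 or 2 of 13 other settings.

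**Figure D5:**
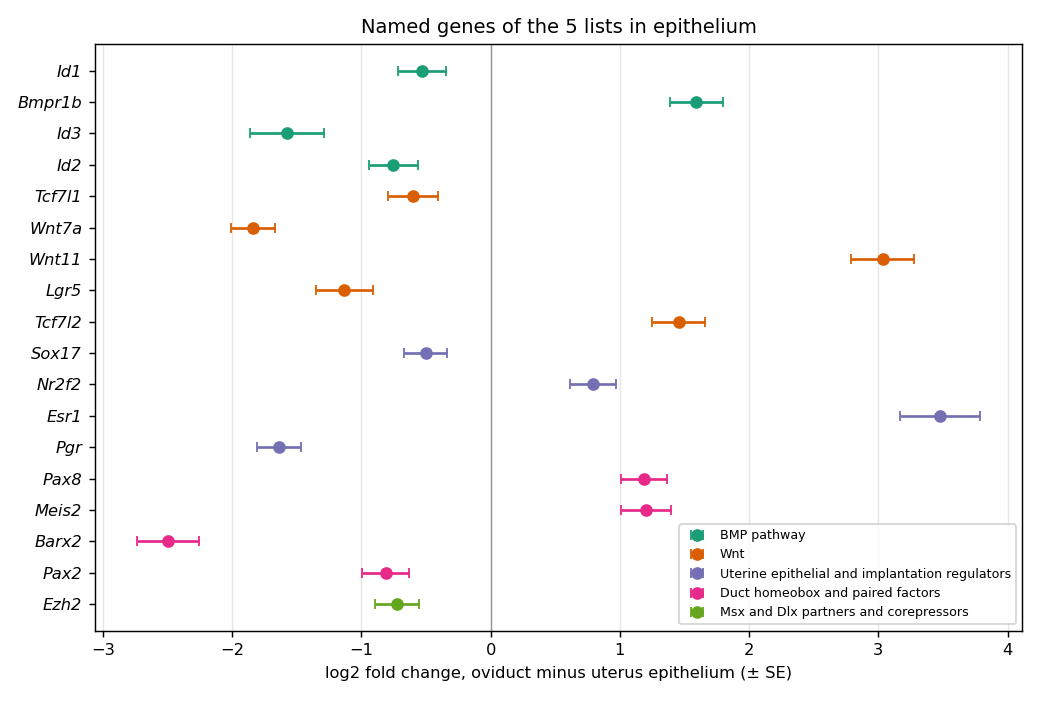
Log2 fold change of oviduct minus uterine epithelium, with SE, for the 18 genes named from the 5 lists (edgeR). Values run from −2.50 (Barx2) to 3.48 (Esr1), and genes lie on both sides of 0 in 4 of the 5 lists.

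The genes whose levels were most like those of each member were found by Pearson's r of log2(CPM + 1) over 32 sums of 4 libraries and 8 classes, among 12438 genes. The sums share libraries and class gates, so r is a description of these sums. Msx1 was most like Pfdn1 (r = 0.87), Ntn4 (0.87), Chchd2 (0.85), Tmem45b (0.85) and Mal (0.85). Msx2 was most like Barx2 (0.93), Sel1l3 (0.92), Gm5860 (0.89), Plb1 (0.88) and Tmem45b (0.87). Dlx5 was most like Prap1 (0.96), Cxcl17 (0.95), Slc25a48 (0.95), Tmem45b (0.94) and Cldn23 (0.94). Dlx6, at most 1.25 CPM outside epithelium, was most like Lce3c (0.99), Gm14317 (0.98), Pkhd1 (0.98), Ikzf3 (0.98) and Wfdc10 (0.98). Tmem45b was on the list of 3 of the members.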

How the data were processed

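UMI counts per gene and barcode were deposited as filtered and raw matrices by the authors, made with Cell Ranger (6.0.1 and 4, per the file headers) on mm10, per the submitters' processing notes, which also name Seurat 4.2.3. The members and gene lists were chosen with earlier results of these data known. Barcodes under 500 genes or above 15% mitochondrial UMIs were dropped, and the highest Scrublet scores were removed at a rate of 0.8% per 1000 barcodes, because the automatic threshold marked 4 barcodes in all. Cells were gated by the mean scaled level of 12 marker lists (score of at least 0.15, 0.05 above the next class, 3 markers detected); these thresholds were set after the scores were seen. Leiden clusters (scanpy 1.11.5, 2000 variable genes, 30 components, resolution 1) gave 27 clusters and served as an alternative.

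Counts were summed per library and class (at least 20 cells in each library, 8 classes) and fitted with edgeR 4.0.16 (TMM, filterByExpr, quasi-likelihood test, Benjamini-Hochberg over all genes of the fit). Organs were compared within a class, and epithelium with mesenchyme in 1 model with library terms. The latter was planned as a test, but the members had been chosen on these sums, so their p-values are not given. The upper bound for free RNA was the smallest ratio of other classes' markers in a class to barcodes of at most 100 UMIs. The steps were tested on simulated counts in which all genes had the same spread. That setting does not cover the wide gap between the oviduct libraries for the members. DESeq2 1.42.0, other filters and classes, and fits without each library were alternatives. Per the series' design text, both organs of a pool came from the same neonates; deviations of same-numbered libraries correlated at 0.244 in mesenchyme, 0.237 in mesothelium and −0.309 in epithelium, so the replicate number was used as a block only as an alternative.

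Named were the 4 members, their family, up to 3 called genes per list and direction with the largest change, at least 20 CPM and no overlap of organs in epithelium, and the 5 genes most alike each member. Called list genes under that level were also given, after their values were seen. With 2 libraries per organ and 3 UMIs as the floor of a 0, counting intervals cover counting error only. Sequences and positions are from GENCODE M21 and RefSeq tables of GRCm38; protein sequences and promoters of Dlx5 and Dlx6 were not used here. The homeobox sequence of Msx1 is not reported here.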

Additional observations from a re-analysis of the deposited data

Results flagged for a closer look

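The organ difference of the Msx genes had opposite directions in epithelium and in some other classes, with both libraries of an organ on the same side within each class named; the difference between classes was not tested. For Msx1 the log2 difference of oviduct minus uterus was −3.45 in epithelium, against 1.69 in mesenchyme and 2.01 in smooth muscle. It was 0.30 in blood endothelium, which did not pass the test there (edgeR, adjusted p = 0.62). It had the same sign as in epithelium in mesothelium (−0.19) and in haemoglobin-rich barcodes (−1.01), neither of which passed the test (edgeR, adjusted p of 0.91 and 0.24). For Msx2 it was −3.92 in epithelium, against 2.31 in mesenchyme and 3.11 in mesothelium.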

How the results depend on the processing

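The epithelial organ differences of the 4 members and the mesenchymal differences of Msx1 and Msx2 kept their direction in all 82 alternatives that could be computed, and 20 of these moved the value. The genes were chosen on these differences and the alternatives reuse the same 4 libraries, so the kept direction is not support for them. Leaving out 1 library at a time gave epithelial log2 differences of −5.54 to −2.61 for Msx1, −5.92 to −3.06 for Msx2, −3.10 to −2.05 for Dlx5 and −7.29 to −3.55 for Dlx6, the extremes coming without an oviduct replicate. In mesenchyme they were 1.42 to 2.03 for Msx1 and 1.83 to 3.04 for Msx2. With doublets kept, mesenchymal Msx1 was 1.31 and Msx2 1.63, with free RNA subtracted 3.03 and 3.94 (fitted values that depend on the prior count, since no UMI was left in uterus replicate 1), and with classes taken from clusters Msx2 was 1.31. A pair of alternatives, taken as differences of mean log2 CPM and not fitted, was added after seeing the data. Within cluster 25 the epithelial differences were −0.85 for Msx1, −0.69 for Msx2, −0.62 for Dlx5 and −1.58 for Dlx6. There the 6 cells with all 4 genes held 495 of the 505 Msx1 UMIs of oviduct replicate 1. Oviduct replicate 2 had 10, 6, 4 and 1 UMIs of the members in that cluster. Without oviduct cells of mostly uterus-list UMIs the epithelial differences were −6.60 for Msx1 and −3.53 for Dlx5, and Msx2 and Dlx6 had no UMI in oviduct replicate 1.

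Msx1 in smooth muscle and in endothelium and Msx2 in mesothelium kept their direction and side of the threshold in all 11, 13 and 12 alternatives, and mesothelial Msx1 in 9 of 10. Mesothelial Msx2 had 1 and 2 uterine UMIs in the main sums. Its alternatives reuse the same libraries and are not independent support. Leaving out 1 library gave 1.70 to 2.45 for Msx1 in smooth muscle, 2.61 to 3.79 for Msx2 in mesothelium and 0.12 to 0.52 for Msx1 in endothelium. For epithelium minus mesenchyme it gave in oviduct 0.52 to 3.29 (Msx1), 0.44 to 2.78 (Msx2), 5.35 to 6.48 (Dlx5) and 3.40 to 6.43 (Dlx6), and in uterus 7.67 to 7.71, 8.06 to 8.96, 8.55 to 8.92 and 8.37 to 8.42. Over all 12 alternatives the uterus values ran from 7.26 to 9.11 (Msx1), 7.78 to 10.1 (Msx2), 8.11 to 10.9 (Dlx5) and 7.65 to 10.2 (Dlx6). With DESeq2 the oviduct values were 1.95 for Msx1 and 1.69 for Msx2. Mesothelial Msx1 turned to 0.34 (edgeR, adjusted p = 0.87) with free RNA subtracted. The cause of these changes was not tested.

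Genes called with DESeq2 were 1623 in epithelium, 1852 in smooth muscle, 512 in mesothelium and 151 in endothelium, against 2882, 3389, 795 and 357. With no filter on low counts they were 1225 in mesothelium and 595 in endothelium. The replicate block gave 1343 in mesothelium and changed no call of a member. In epithelium the calls of Id1, Tcf7l1 and Sox17 were lost with that block. With the numbers crossed, added after seeing the data, 970 genes were called in endothelium. Leaving out 1 library gave 1688 to 2863 in epithelium, 5822 to 6553 in mesenchyme, 2243 to 2759 in smooth muscle, 482 to 750 in mesothelium, 178 to 382 in endothelium, and 3536 to 5274 (oviduct) and 2295 to 3140 (uterus) higher in epithelium than in mesenchyme. The mean share of uterine epithelial cells with all 4 genes, 33.4% (30% to 36.8% by library), was 1.63% thinned to 3000 UMIs (0.0569% in oviduct), 67.9% in cells of at least 5000 UMIs, 15.6% with classes from clusters and 51.9% with the stricter cell filter; by library it was 0.395% to 4.03% in oviduct. Classes from clusters left both uterus libraries with under 20 smooth muscle cells (1 and 4) and were not fitted there. Where a library was left out, the lone library of that organ was assumed to vary like the others. With 2 libraries per organ and 25 to 163 deeper epithelial cells in each, cell numbers limit the precision.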
